A study of Mus musculus with 4 samples.

Results

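Messenger RNA of 46 genes of the cell cycle and of mitosis was followed in neutrophils from mouse bone marrow. The genes were chosen by name: 29 act in mitosis, 9 in DNA replication (the 6 Mcm helicase subunits, Pcna, Rrm1 and Rrm2) and 8 elsewhere in G1 and S phase. All 46 were tested by the authors, of 12634 genes tested and 23284 listed. The series holds 2 WT samples and 2 samples from mice lacking Srf, called Srf KO, which encodes serum response factor, a transcription factor of actin and immediate-early genes. Per the labels, the sorted cells of both genotypes were mature neutrophils with strong Gr1 and 7/4 staining and strong side scatter (SSC). The title of the series asks whether neutrophils need SRF to migrate in inflammation. The sources used here give no strain, age, deleting Cre or number of animals per sample, and the spread behind the p-values may be technical. Expression is in FPKM (fragments per kilobase of transcript, scaled to all mapped fragments), 1 value per genotype, pooled by the authors, and the read depth is unknown. Each log2 fold is Srf KO over WT, followed by ± and the standard error (SE) implied by the authors' fold and test statistic. A gene is said to have risen where the authors' q-value, a p-value adjusted over all genes tested, was at most 0.05.

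A dividing cell licenses its replication origins in G1, copies its DNA in S phase and separates the copies in mitosis. Genes of S phase are typically switched on by E2F factors, and genes of G2 and mitosis by the B-MYB and FOXM1 complexes that bind cell cycle homology region (CHR) elements. In the bone marrow these genes mark dividing cells, among them the dividing precursors of neutrophils, whereas the band and segmented neutrophils that follow those precursors no longer divide.

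As a check of the labels, the level of Srf itself was 13.7 FPKM in the WT pool and 0.439 FPKM in the knockout pool. Among all tested genes 17.7% were called higher and 17.8% lower in Srf KO, 35.5% in either direction, and the median log2 fold was 0.08. Neutrophil markers were present in both genotypes, with Csf3r at 687 and 248 FPKM and Cxcr2 at 596 and 201 FPKM, whereas S100a8 and S100a9 were left untested with too many reads and are listed at 0. In these bulk samples, fewer cells of a type and less RNA per cell cannot be told apart.

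Most of the cell cycle genes rose. The level of every one of the 46 genes was higher in Srf KO than in WT, and 31 of them (67.4%) passed the authors' test, against 17.7% of all tested genes called higher. No member was below its WT level, and 54.1% of all genes with a fold were above theirs. The median log2 fold of the members was 0.60, a 1.52-fold difference, beside 0.08 over all tested genes. The changes were modest: 4 members (Gmnn, Cdk1, Birc5 and Cdca3) reached 2-fold and the largest was 2.08-fold. At an unadjusted p below 0.05, 38 members were higher, against 23.4% of all tested genes. The members shared libraries, so their common direction is 1 observation on 4 samples and not 46.

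**Figure D1:**
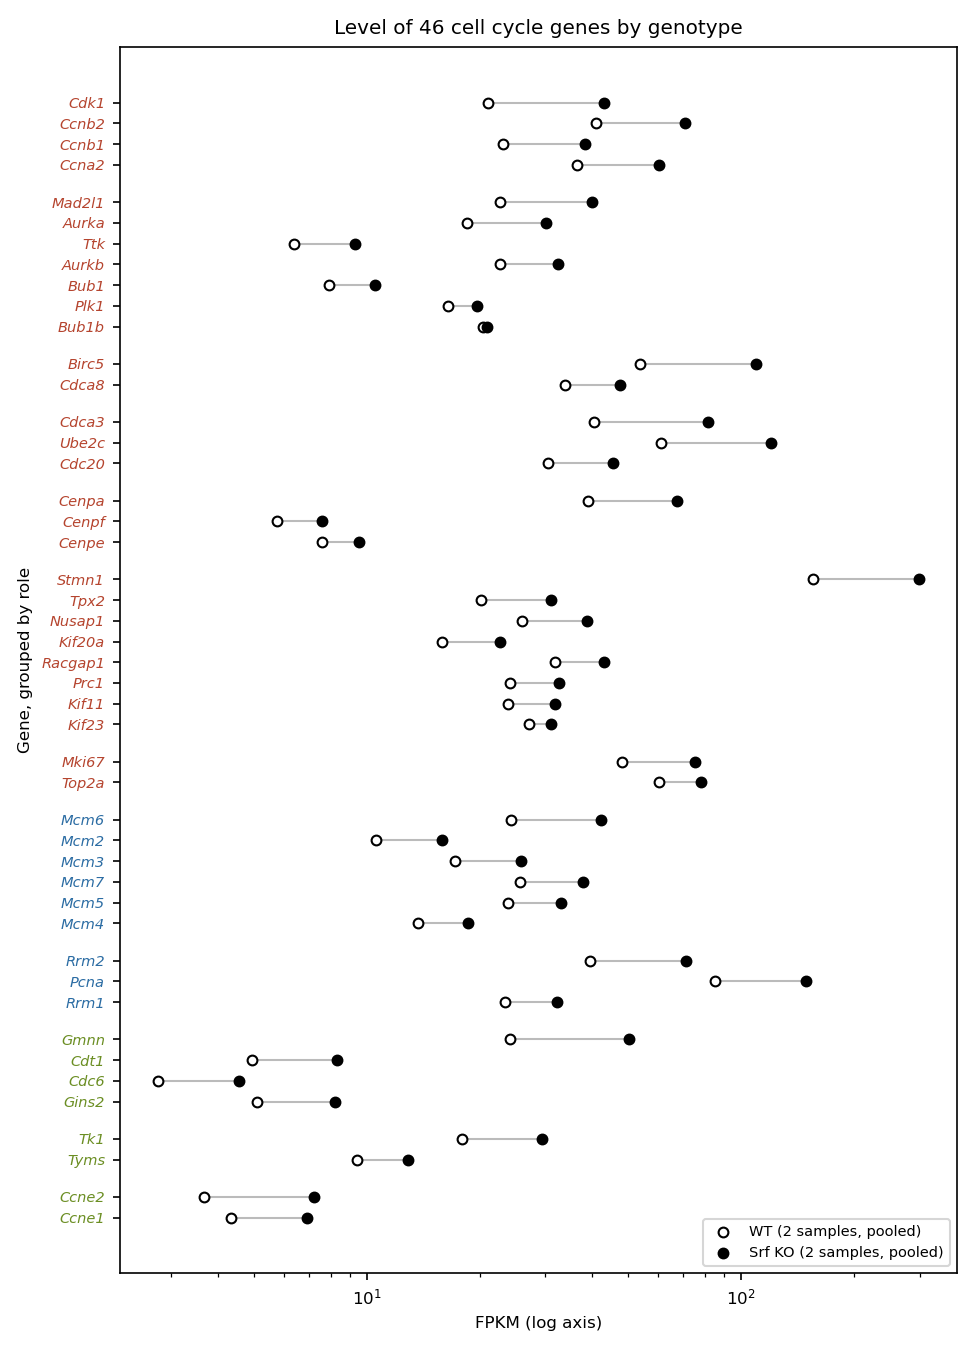
Level of each of the 46 genes in FPKM (log axis), pooled over 2 WT samples (open circles) and 2 Srf KO samples (filled circles), in blocks by role. The filled circle lies to the right of the open one for every gene, and nearly meets it for Bub1b (20.4 and 20.9 FPKM).

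The 29 mitosis genes had a median log2 fold of 0.57 (range 0.03 to 1.04) and the 9 replication genes one of 0.59 (range 0.44 to 0.85). The medians differed by 0.01, or by 0.13 when all 17 genes of G1 and S phase were set against mitosis, and neither difference was tested because genes are not replicates. Summed over its genes, the mitosis group went from 942 to 1549 FPKM, 1.64-fold, and the replication group from 263 to 426 FPKM, 1.62-fold. The mitosis sum was therefore 3.58 times the replication sum in WT and 3.64 times in Srf KO. Stmn1 alone held 155 of the 942 FPKM and 299 of the 1549 FPKM, so these ratios lean on 1 gene. The standard deviation of the log2 fold was 0.26 over the mitosis genes and 0.16 over the replication genes, beside a median SE of 0.19 for a single member, and the spreads were not tested against each other. Of the mitosis genes 14 lay within the replication range, 5 above it and 10 below it. In the authors' calls 18 of 29 mitosis genes and 8 of 9 replication genes rose, against 17.7% of all tested genes called higher. The same 17.7% stands behind each count of risen members given below. With the adjustment for transcript length described below, 18 mitosis and 9 replication genes were called higher, against 14.5% of all tested genes. The other 8 genes of G1 and S phase had a median of 0.72 and 5 of them rose.

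**Figure D2:**
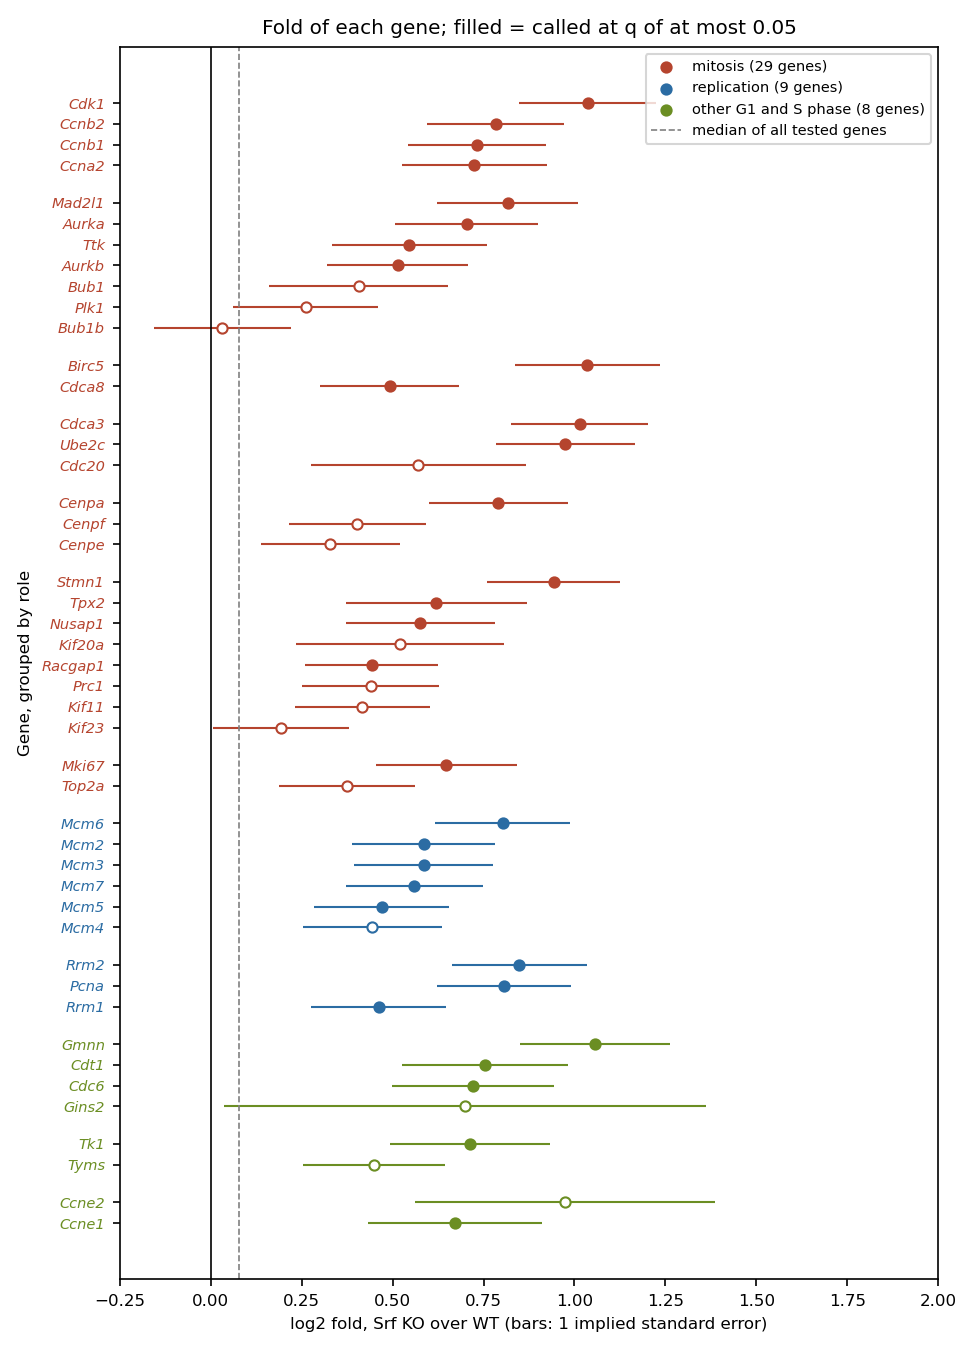
The log2 fold of Srf KO over WT for each gene, with bars of 1 implied SE, filled where the authors called the gene at a q-value of at most 0.05 and coloured by group. The replication genes lie between 0.44 and 0.85, inside the wider span of the mitosis genes, and the dashed line marks the median of all tested genes at 0.08.

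Promoters were read beside these values because the groups are known for different elements. The 300 bases around the start (250 before and 50 after) were found in the RefSeq table, build GRCm38.p6, for 37 of the 46 members. Not matched were Ccna2, Aurkb, Kif20a, Tpx2, Stmn1, Mcm4, Gins2, Gmnn and Ccne2. To show both ends of the folds, the 2 highest and the lowest of the matched mitosis genes, then the 3 highest and the lowest of the matched replication genes, are printed 5′ to 3′ along the gene. Capitals mark matches on either strand. The letters searched for a CHR were TTTGAA and, as its second spelling, TTCGAA. The CCAAT box was searched by its own letters. The letters for an E2F-type site were TTTCCCGC, TTTGGCGC, TTTCGCGC or TTTGCCGC. They lie at chr10:69352863-69353162 (minus strand), chr11:117848987-117849286 (plus strand), chr2:118597961-118598260 (plus strand), chr12:24708004-24708303 (plus strand), chr2:132253131-132253430 (minus strand), chr1:128359656-128359955 (minus strand) and chr7:102441445-102441744 (plus strand).
Cdk1: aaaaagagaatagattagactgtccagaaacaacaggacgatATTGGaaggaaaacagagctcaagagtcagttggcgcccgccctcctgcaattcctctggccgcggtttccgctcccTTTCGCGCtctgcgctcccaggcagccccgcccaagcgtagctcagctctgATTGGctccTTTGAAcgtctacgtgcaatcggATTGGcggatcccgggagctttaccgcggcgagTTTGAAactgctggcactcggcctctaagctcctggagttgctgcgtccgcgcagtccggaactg
Birc5: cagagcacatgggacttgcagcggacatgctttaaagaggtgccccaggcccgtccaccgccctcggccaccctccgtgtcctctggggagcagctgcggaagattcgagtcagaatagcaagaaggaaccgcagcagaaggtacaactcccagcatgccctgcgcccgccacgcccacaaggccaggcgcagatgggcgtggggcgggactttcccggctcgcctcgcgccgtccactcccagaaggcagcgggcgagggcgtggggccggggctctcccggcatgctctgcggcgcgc
Bub1b: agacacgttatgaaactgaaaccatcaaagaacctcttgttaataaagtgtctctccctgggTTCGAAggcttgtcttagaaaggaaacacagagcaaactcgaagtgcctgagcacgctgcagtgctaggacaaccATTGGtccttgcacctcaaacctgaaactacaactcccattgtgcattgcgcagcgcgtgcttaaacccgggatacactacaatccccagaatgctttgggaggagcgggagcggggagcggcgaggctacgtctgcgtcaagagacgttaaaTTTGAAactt
Rrm2: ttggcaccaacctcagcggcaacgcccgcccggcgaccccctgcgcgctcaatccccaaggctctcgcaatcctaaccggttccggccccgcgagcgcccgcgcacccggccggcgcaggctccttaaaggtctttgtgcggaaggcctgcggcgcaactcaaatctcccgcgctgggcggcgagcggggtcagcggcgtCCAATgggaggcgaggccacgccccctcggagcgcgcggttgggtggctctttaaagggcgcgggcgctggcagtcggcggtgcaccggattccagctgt
Pcna: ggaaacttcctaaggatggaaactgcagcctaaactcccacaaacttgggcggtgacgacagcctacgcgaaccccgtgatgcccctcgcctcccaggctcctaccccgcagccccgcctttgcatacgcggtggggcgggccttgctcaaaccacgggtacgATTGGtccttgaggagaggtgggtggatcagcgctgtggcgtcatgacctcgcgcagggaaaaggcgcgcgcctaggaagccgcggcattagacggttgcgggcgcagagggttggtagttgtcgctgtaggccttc
Mcm6: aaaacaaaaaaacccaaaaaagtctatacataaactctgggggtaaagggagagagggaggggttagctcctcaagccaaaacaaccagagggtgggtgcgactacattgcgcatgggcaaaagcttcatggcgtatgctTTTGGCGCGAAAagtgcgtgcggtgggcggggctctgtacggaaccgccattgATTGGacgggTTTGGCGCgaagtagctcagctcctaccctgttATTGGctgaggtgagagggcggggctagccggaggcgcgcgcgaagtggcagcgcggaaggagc
Rrm1: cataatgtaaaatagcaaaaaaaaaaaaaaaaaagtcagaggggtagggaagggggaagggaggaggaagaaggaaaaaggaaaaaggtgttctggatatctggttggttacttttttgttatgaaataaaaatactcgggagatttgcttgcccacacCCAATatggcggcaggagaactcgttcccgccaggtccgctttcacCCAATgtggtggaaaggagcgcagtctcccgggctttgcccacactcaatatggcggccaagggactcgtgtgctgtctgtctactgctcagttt

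The Cdk1 promoter held a CHR beginning 15 bases before the start and a second one 71 bases before it, CCAAT boxes at 48, 80 and 208 bases and an E2F-type site at 131 bases. Bub1b, the member with the smallest fold, held 1 CHR in each spelling, 188 bases before and 41 bases into the transcript, and a CCAAT box at 113 bases. Birc5, with the second largest mitotic fold, held none of these letters in this window. Of the replication promoters shown, Mcm6 held 3 E2F-type sites, at 47, 106 and 110 bases before the start, the last 2 overlapping on opposite strands. Rrm2, Pcna and Rrm1 held CCAAT boxes and no match to the others.

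Across the matched promoters the groups differed in these letters. A CHR was found in 19 of 24 mitosis genes (79.2%) and 2 of 8 replication genes, against 19.2% of all 32851 promoters in the table. Members were scored per gene, over any of its promoters, and the share of all was scored per promoter. Prc1 and Mcm7 had 2 promoters each, and Mcm7 held its CHR and E2F-type matches only at chr5:138171834-138172133. The 5 mitosis genes without one were Birc5, Mad2l1, Ccnb1, Nusap1 and Cenpe, of which the first 4 had folds above the mitosis median. Nusap1 was above it by little (0.576 beside 0.571). The Mad2l1 window ended at base 66535270 of chromosome 6, before the GENCODE start of the gene at 66535390, so a CHR there could be missed. Of 39 promoter windows of members, 28 had their last 30 bases in an annotated transcript of the gene. A CHR beginning within 50 bases of the start, a window chosen after the positions were seen, was found in 18 of 24 mitosis genes, 0 of 8 replication genes and 5.31% of all promoters. In 11 of 24 mitosis genes, 0 of 8 replication genes and 0.968% of all promoters a CCAAT match began 20 to 40 bases before a CHR, also a distance chosen afterwards. CCAAT itself was found in 21 of 24 mitosis genes and 8 of 8 replication genes, against 37.4% of all promoters. E2F-type sites were found in 1 of 24 mitosis genes, 4 of 8 replication genes (Mcm3, Mcm5, Mcm6 and Mcm7), 2 of the other 5 genes (Cdc6 and Cdt1) and 2.26% of all promoters. The CArG box that SRF binds was found in 1 of the 37 genes (Tyms), against 1.63% of all promoters. A match describes the letters only, and no match says only that they are not in this window.

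Of the mitotic cyclins and their kinase all 4 rose. Cdk1, the kinase that drives entry into mitosis, had 21.03 FPKM in WT against 43.1 FPKM in the knockout. Its log2 fold was 1.04 ± 0.19, with a q-value of 6.69e-07 in the authors' deposited table. Its partners rose somewhat less by value. Ccnb1 (cyclin B1) went from 23.0 to 38.3 FPKM (0.73 ± 0.19). Ccnb2 (cyclin B2) went from 41.1 to 70.7 FPKM (0.78 ± 0.19). Ccna2, the cyclin A of S phase and G2, went from 36.5 to 60.4 FPKM (0.72 ± 0.20), and its exons overlap those of Exosc9 on the opposite strand. The kit does not keep the strand, so reads there cannot be told apart.

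Of the 7 mitotic kinase and spindle checkpoint genes 4 rose, and their folds ran from 0.03 to 0.82. Mad2l1, the checkpoint protein MAD2, rose from 22.71 to 39.98 FPKM (0.82 ± 0.19). Aurka, the centrosomal Aurora kinase, rose from 18.5 to 30.1 FPKM (0.70 ± 0.20). Ttk, the checkpoint kinase MPS1, rose from 6.37 to 9.30 FPKM (0.55 ± 0.21). Aurkb, the kinase of the chromosomal passenger complex, also rose, from 22.8 to 32.5 FPKM (0.51 ± 0.19). The other checkpoint and polo kinases did not pass. Plk1 was at 16.4 FPKM in WT and 19.7 in Srf KO (0.26 ± 0.20). Bub1 was at 7.91 and 10.5 FPKM (0.41 ± 0.25), with a q-value of 0.189 in the authors' deposited table. Bub1b, which encodes the checkpoint protein BUBR1, was at 20.4 and 20.9 FPKM (0.03 ± 0.19), with a q-value of 0.919 in the authors' deposited table. The folds of Mad2l1 and Bub1b, which act in the same checkpoint complex, differed by 0.78, with a combined SE of 0.27 if their errors are independent. Cdk1 and Bub1b differed by 1.004 (combined SE 0.27).

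Among partners of Aurkb in the passenger complex, Birc5 (survivin) rose from 53.6 to 109.9 FPKM (1.04 ± 0.20) and Cdca8 (borealin) from 33.9 to 47.6 FPKM (0.49 ± 0.19). The subunits of 1 complex thus ran from 1.43-fold and 1.41-fold for Aurkb and Cdca8 to 2.05-fold for Birc5. Birc5 and Aurkb differed by 0.52 (combined SE 0.28). Of the genes that act with the anaphase-promoting complex, Ube2c, its ubiquitin-conjugating enzyme, rose from 61.3 to 120.4 FPKM (0.97 ± 0.19). Cdca3, a trigger of mitotic entry, rose from 40.5 to 81.8 FPKM (1.01 ± 0.19). Cdc20, the activator of the complex, stood at 30.5 and 45.4 FPKM (0.57 ± 0.30) and did not pass, at a locus it shares with Elovl1.

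Centromere and kinetochore genes split by call. Cenpa, the centromeric histone H3 variant, rose from 39.0 to 67.5 FPKM (0.79 ± 0.19). The large kinetochore proteins did not pass. Cenpe, a kinesin of chromosome alignment, was at 7.58 and 9.52 FPKM (0.33 ± 0.19). Cenpf was at 5.76 and 7.61 FPKM (0.40 ± 0.19), with a q-value of 0.0808 in the authors' deposited table.

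Of the 8 genes of the spindle and of cytokinesis 4 rose. Stmn1, which encodes the microtubule destabiliser stathmin, was the most abundant member and rose from 155 to 299 FPKM (0.94 ± 0.18). Tpx2, a spindle assembly factor that activates Aurora A, rose from 20.2 to 31.1 FPKM (0.62 ± 0.25). Nusap1, a microtubule-bundling protein, rose from 25.9 to 38.7 FPKM (0.58 ± 0.20), at a locus shared with Oip5. Racgap1, a subunit of centralspindlin, rose from 31.7 to 43.1 FPKM (0.44 ± 0.18), with a q-value of 0.0449 in the authors' deposited table, the highest of the members called. Its centralspindlin partner Kif23 stood at 27.1 and 31.0 FPKM (0.19 ± 0.19) and did not pass. Nor did the motor Kif11 (23.9 and 31.9 FPKM, 0.42 ± 0.19), the midzone protein gene Prc1 (24.1 and 32.7 FPKM, 0.44 ± 0.19) and the motor Kif20a (15.8 and 22.7 FPKM, 0.52 ± 0.29), whose locus holds Brd8 and Cdc23 too. Stmn1 and Kif23, with transcripts of 1060 and 3398 bases, differed by 0.75 (combined SE 0.26) before any adjustment for length. Of the chromosome structure genes, Mki67, the Ki-67 antigen that coats mitotic chromosomes, rose from 48.2 to 75.5 FPKM (0.65 ± 0.19). Top2a, the topoisomerase that untangles replicated DNA, stood at 60.3 and 78.2 FPKM (0.37 ± 0.19) and did not pass.

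The MCM helicase, a ring of 6 different subunits that unwinds DNA at the fork, rose in 5 of its 6 subunits. Mcm6 rose from 24.2 to 42.2 FPKM (0.80 ± 0.19). Mcm2 rose from 10.6 to 15.9 FPKM (0.59 ± 0.20) and Mcm3 from 17.2 to 25.7 FPKM (0.59 ± 0.19). Mcm7 rose from 25.7 to 37.9 FPKM (0.56 ± 0.19), with the microRNA genes Mir25, Mir93 and Mir106b inside its locus, and Mcm5 from 23.8 to 33.0 FPKM (0.47 ± 0.19). Mcm4 stood at 13.7 and 18.6 FPKM (0.44 ± 0.19), with a q-value of 0.0552 in the authors' deposited table. The highest and lowest subunits, Mcm6 and Mcm4, differed by 0.36 with a combined SE of 0.27. All 6 had an unadjusted p below 0.05, Mcm4 included.

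The other replication genes all rose. Pcna, the sliding clamp of the replicative polymerases, went from 85.0 to 148.8 FPKM (0.81 ± 0.18), with 2 pseudogenes named after it in the annotation. Ribonucleotide reductase makes the deoxynucleotides for replication. Its S phase subunit Rrm2 went from 39.5 to 71.1 FPKM (0.85 ± 0.19), and its steadier large subunit Rrm1 from 23.4 to 32.3 FPKM (0.46 ± 0.19). They differed by 0.39, with a combined SE of 0.26.

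Of the 4 genes that license origins and start replication 3 rose. Gmnn, which encodes geminin, the inhibitor of licensing, had the largest fold of the 46 and rose from 24.2 to 50.3 FPKM (1.06 ± 0.21). Its target Cdt1 rose from 4.94 to 8.33 FPKM (0.75 ± 0.23) and the origin-loading factor Cdc6 from 2.76 to 4.55 FPKM (0.72 ± 0.22). The inhibitor and its target thus rose together, their folds 0.30 apart with a combined SE of 0.31. Gins2, a subunit of the helicase activator GINS, stood at 5.07 and 8.24 FPKM (0.70 ± 0.66) and did not pass. Its SE was the largest of the members, at a locus it shares with Gse1.

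Of the genes that supply thymidylate, Tk1 (thymidine kinase) rose from 18.0 to 29.4 FPKM (0.71 ± 0.22), overlapping Afmid. Tyms (thymidylate synthase) stood at 9.42 and 12.9 FPKM (0.45 ± 0.20) and did not pass. Cyclin E opens S phase with CDK2. Ccne1 rose from 4.34 to 6.91 FPKM (0.67 ± 0.24), while Ccne2 stood at 3.67 and 7.21 FPKM (0.97 ± 0.41), a larger fold with a q-value of 0.0512 in the authors' deposited table and a locus shared with Ints8. Ccne2, Prc1, Mcm4 and Tyms lay just outside the call, with q-values of 0.0512, 0.0543, 0.0552 and 0.0577 in the authors' deposited table. Exons of 14 members overlap another annotated gene, 8 share their locus in the table, and 5, Ccnb1, Ccnb2, Pcna and Tyms among them, have a named pseudogene or related copy. In the 17 mitosis and 7 replication genes with none of these, the medians were 0.55 and 0.59.

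Fold went with transcript length among the members. Spearman's rho between the log2 fold and the length of the most abundant annotated isoform was -0.57 across the 46 genes and -0.24 across 12318 tested genes, a description with no p because genes of the same libraries are not independent. All 6 members of up to 1500 bases rose (Gmnn, Birc5, Ube2c, Stmn1, Cenpa and Tk1), as did 17 of 19 longer than that and up to 3000 bases and 8 of 21 above 3000 bases. The uncalled Cenpe and Cenpf are 7910 and 11130 bases long. Bub1b, at 3668 bases, and Cdk1, at 4375 bases, were at opposite ends of the folds. After the running median of all genes at the same length was subtracted, all 46 folds were still above 0, with a median of 0.55. On that scale 31 members were called higher, against 14.5% of all tested genes, and 25 of them were called as deposited too. Cenpe, Cenpf, Kif11, Top2a, Mcm4 and Tyms entered the calls, and Aurkb, Ttk, Cdca8, Racgap1, Tk1 and Ccne1 left them. The medians of the replication and mitosis genes were then 0.56 and 0.54. The pairs of members compared above were not adjusted for length. On the adjusted scale Stmn1 and Kif23 were at 0.57 and 0.24, and Birc5 and Aurkb at 0.66 and 0.36. Rrm2 and Rrm1 were then at 0.69 and 0.51, and Gmnn and Cdt1 at 0.68 and 0.59. Mcm6 and Mcm4 were at 0.76 and 0.47, and Mad2l1 and Bub1b at 0.59 and 0.06. Those pairs lay closer than before, whereas Cdk1 and Bub1b lay further apart, at 1.11 and 0.06. The part of transcript length in the individual folds was not tested.

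**Figure D3:**
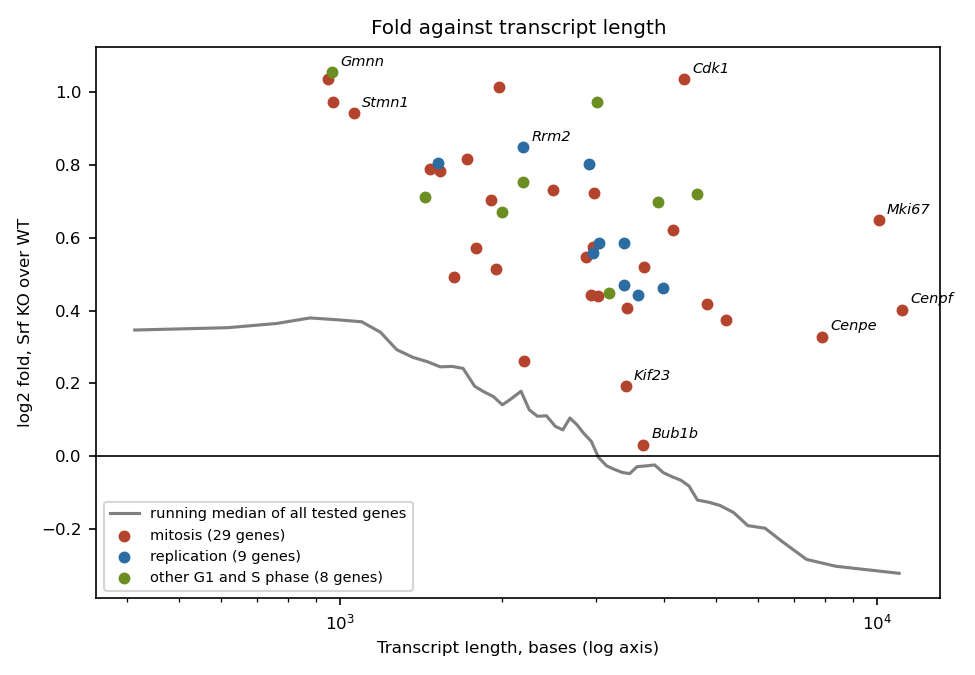
The log2 fold of each of the 46 genes against transcript length in bases (log axis), with the running median over all tested genes as a grey line. Short members such as Gmnn and Stmn1 lie high and long ones such as Cenpe lower, Cdk1 being a long member with a high fold, and every member lies above the grey line, Bub1b closest to it.

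The deposited transcript table gave the values by isoform, which resolved the rise for most but not all of the called members. It reads the same fragments as the gene values and is no independent support. Of 57 tested isoforms of the members 30 were called higher and 0 lower, against 13.1% of all tested isoforms called higher, and 3 tested isoforms had a fold below 0. The same members gave 31 of 47 tested start groups (15.1% of all) and 30 of 50 tested coding sequences (14.4% of all) called higher. In Birc5 the isoform NM_009689 held 96.9% of the WT level and went from 51.9 to 108.2 FPKM (1.06 ± 0.20), while the minor NM_001012273 was at 1.66 and 1.68 FPKM. Nusap1 differed in that its minor isoform moved furthest. NM_001042652 rose from 3.304 to 9.45 FPKM (1.52 ± 0.49) and NM_133851 stood at 22.6 and 29.2 FPKM (0.37 ± 0.23), so that the share of the minor isoform was 12.7% in WT and 24.4% in Srf KO. In Ccne2, uncalled as a gene, the isoform NM_001037134 was called, from 2.09 to 5.02 FPKM (1.27 ± 0.50), and NM_009830 was not, at 1.58 and 2.19 FPKM. Racgap1 and Cdc6 were called as genes with no isoform called. The 3 tested isoforms of Racgap1 had SEs from 0.69 to 4.79. The isoform NM_001025779, 97.3% of the WT level of Cdc6, was at 2.69 and 4.41 FPKM (0.72 ± 0.38). Whether isoform shares differed between genotypes was not tested.

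Other genes of the cycle were read from 8 lists of complexes and regulators. Of 165 tested genes, 68 were called higher and 5 lower, with a median log2 fold of 0.46. Among all tested genes 17.7% were called higher and 17.8% lower, the shares to set beside the count of each list. Of the further replication genes 22 of 39 were called higher and 0 lower (26 and 0 at an unadjusted p below 0.05), and their median was 0.58. The GINS subunit gene Gins1 rose from 3.97 to 9.99 FPKM (1.33 ± 0.28). At the other end Pold1, the catalytic subunit of polymerase delta, was at 6.49 and 5.58 FPKM and the clamp loader gene Rfc1 at 16.6 and 15.9 FPKM. Further kinetochore genes gave 15 of 29 called higher and 0 lower (15 and 0 at an unadjusted p below 0.05), led by Cenph (1.23 ± 0.25) and Cenpk (1.15 ± 0.27), while Espl1, which encodes separase, had a fold of -0.29 ± 0.21 and Zw10 one of -0.17 ± 0.21. Further spindle genes gave 12 of 28 called higher and 0 lower (14 and 0 unadjusted), led by Pbk (0.73 ± 0.20) and Tacc3 (0.73 ± 0.19), with Kif2a (-0.37 ± 0.24) and Cit (-0.32 ± 0.23) lowest.

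Among G1 cyclins, kinases and CDC25 phosphatases 8 of 14 were called higher and 0 lower (10 and 0 unadjusted), with a median of 0.64. Ccnd1 (cyclin D1) rose from 0.873 to 2.44 FPKM (1.48 ± 0.27) and the CDK1-inhibiting kinase gene Wee1 from 4.14 to 7.47 FPKM (0.85 ± 0.22). Ccnd3, the most abundant cyclin D, stood at 352 and 364 FPKM (0.05 ± 0.20), and Cdc25b had a fold of -0.17 ± 0.34. Genes that restrain division went both ways. The CDK phosphatase gene Cdkn3 rose from 25.1 to 58.7 FPKM (1.22 ± 0.21) and Cdkn2c, which encodes the CDK4 and CDK6 inhibitor p18, from 19.7 to 38.5 FPKM (0.97 ± 0.21). The antiproliferative genes Btg2 and Btg1 fell, from 117.8 to 70.3 FPKM (-0.74 ± 0.18) and from 109.4 to 67.0 FPKM (-0.71 ± 0.19). In all 3 of 7 tested genes of that list were called higher and 2 lower, and Cdkn1c, Cdkn2a and Cdkn2b were left untested.

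In the list of RB, E2F and DREAM complex genes 5 of 20 were called higher and 1 lower. The share called higher was not far from the 17.7% of all tested genes. Tfdp2, an E2F partner, rose from 0.997 to 2.07 FPKM (1.06 ± 0.26), and the DREAM subunit gene Lin9 from 3.84 to 5.89 FPKM (0.62 ± 0.23). Rbl2, the pocket protein p130 of resting cells, fell from 17.4 to 10.9 FPKM (-0.67 ± 0.22), and Tfdp1, the most abundant of the list, was at 180 and 143 FPKM (-0.33 ± 0.18). Subunits and regulators of the anaphase-promoting complex stayed near the background, with 2 of 15 called higher and 1 lower and a median of 0.10. Its inhibitor gene Fbxo5 (EMI1) rose from 17.4 to 34.4 FPKM (0.98 ± 0.20) and the subunit gene Anapc2 fell from 32.2 to 22.2 FPKM (-0.54 ± 0.19). Anapc10 had a fold of 0.54 ± 0.26 and the activator gene Fzr1, which encodes CDH1, one of -0.43 ± 0.20. Condensin and cohesin genes, taken as a single list, were also near the background (1 of 13 called higher, 1 lower, median 0.12). Of the condensin genes Ncapg2 rose (0.47 ± 0.19), Smc2 had a fold of 0.43 ± 0.19 and Ncaph2 one of -0.06 ± 0.21. The folds of Ncaph, Smc4, Ncapg, Ncapd2 and Ncapd3 were 0.43, 0.42, 0.32, 0.16 and 0.12. The cohesin gene Stag2 fell from 64.6 to 38.8 FPKM (-0.73 ± 0.18). Its fellow cohesin genes Stag1, Smc1a, Rad21 and Smc3 had folds of 0.11, 0.10, 0.07 and 0.03. After the length adjustment the median of the whole list was 0.29, beside 0.006 for all tested genes.

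**Figure D4:**
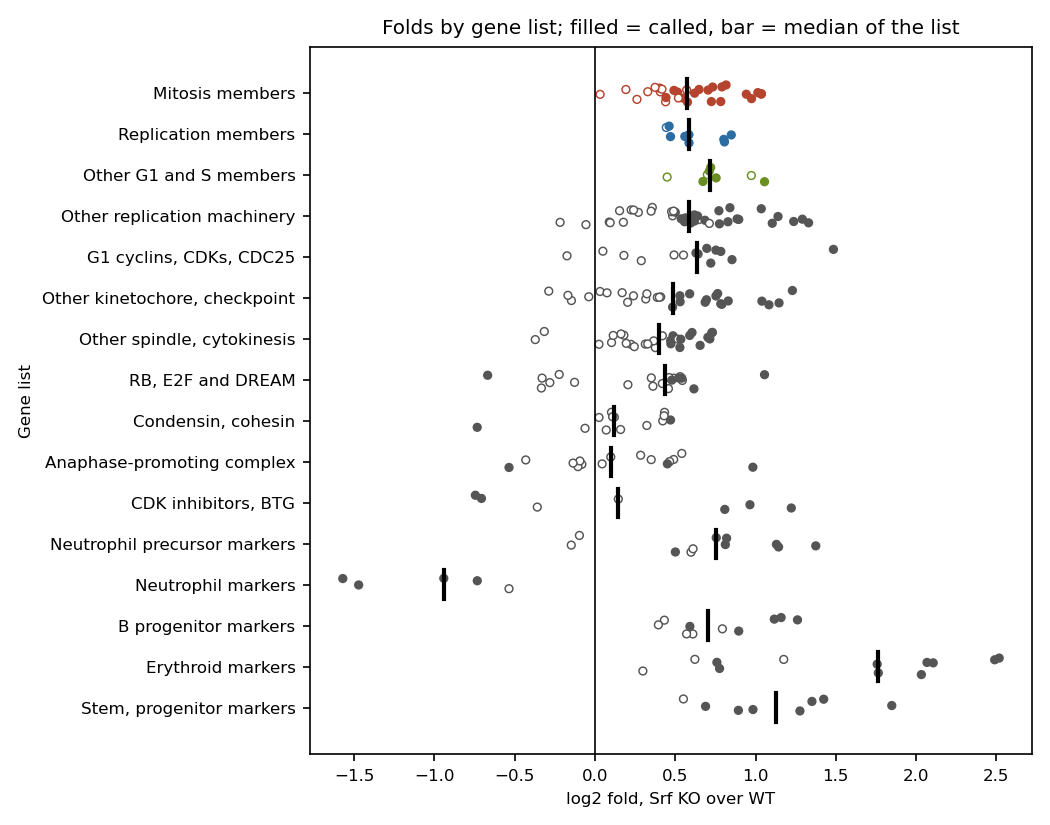
The log2 fold of each tested gene with a value in 16 lists, 1 point per gene, filled where called and with a black bar at the median of the list. The T and NK cell, megakaryocyte and macrophage lists are not drawn. Members and further replication genes centre near 0.6 and neutrophil precursor markers at 0.76. The joint list of condensin and cohesin genes and that of the anaphase-promoting complex centre near 0.1.

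Most markers of neutrophil precursors, which include dividing cells, were higher along with the members. Of 11 markers of neutrophil precursors, 7 were called higher and 0 lower (also 7 and 0 at an unadjusted p below 0.05). Of all tested genes 17.7% were called higher. Not called were Elane (0.60 ± 1.27), Prtn3 (0.61 ± 1.70), Cebpe (-0.10 ± 0.18) and Cebpa (-0.15 ± 0.20). The summed level of the 11 went from 1202 to 2010 FPKM, and their median log2 fold was 0.76, beside 0.60 for the members. The most abundant in WT was Cd63 (303 and 428 FPKM), which mature cells also express, and the largest fold was that of the promyelocyte gene Ms4a3 (49.1 to 127.4 FPKM, 1.37 ± 0.19). In contrast 4 of 5 tested neutrophil markers were called lower and 0 higher, and their sum was 28688 and 18976 FPKM. Cxcr2, the chemokine receptor of mature neutrophils, fell (-1.57 ± 0.19), and Retnlg, the most abundant, was at 24805 and 17117 FPKM (-0.54 ± 0.27). 

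Markers of other marrow cells, some of which divide, were higher too, beside 17.7% of all tested genes called higher. For B progenitors 5 of 10 were called higher and the sum was 106.5 and 170.2 FPKM, with the surrogate light chain gene Igll1 rising from 7.59 to 18.2 FPKM and Cd79b, the most abundant, from 35.1 to 52.9 FPKM. For erythroid cells it was 9 of 12 and 178.6 and 282.5 FPKM, with Car1 rising from 2.84 to 16.0 FPKM and Hbb-b2, the most abundant, at 128.4 and 158.0 FPKM. Stem and progenitor markers were called higher in 7 of 8, with a sum of 14.3 and 28.5 FPKM, Kit going from 5.36 to 9.96 FPKM and Flt3 from 0.919 to 2.47 FPKM. Of the T and NK cell list 9 of 10 genes were called higher (sum 46.4 and 108.4 FPKM), with Nkg7 at 24.1 and 52.8 FPKM and Cd4 at 0.408 and 2.49 FPKM. Of the megakaryocyte list 6 of 8 were (sum 6.14 and 49.3 FPKM), led by Pf4 at 2.68 and 39.2 FPKM, and Gp6, called by the authors, is listed at 0 in WT. None of these 5 lists had a marker called lower or below its WT level at an unadjusted p below 0.05. Their median log2 folds were 0.70 for B progenitors, 1.76 for erythroid cells and 1.13 for stem and progenitor markers. For the T and NK cell and megakaryocyte lists the medians were 1.92 and 2.03, beside 0.60 for the members. Of 8 macrophage and monocyte markers 5 were called higher and 3 lower (sum 177.0 and 157.8 FPKM, median log2 fold 0.90). Vcam1 was at 8.54 and 23.7 FPKM and Cd68 at 64.6 and 33.9 FPKM. No other marker of these lists was at 0 in either genotype among those tested. The part of precursors and other cell types in the levels of the cell cycle genes was not tested.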

How the data were processed

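Libraries were prepared from total RNA of 2 WT and 2 Srf KO samples, per the labels' protocols, using version 2 of Illumina's TruSeq RNA kit. Per the submitters' processing notes, CASAVA 1.8.1, TopHat2 2.0.0, Cufflinks 2.0.0 and build mm10 were used; their settings are not given in the sources used here. The 4 deposited tables hold genes, isoforms, start groups and coding sequences.

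The authors deposited 1 pooled FPKM value for each genotype. The p-value and q-value are the authors'. The log2 fold was recomputed here as Srf KO over WT, and the implied SE is the deposited log2 fold divided by the deposited test statistic. Checked on the gene table, the q-value is the Benjamini-Hochberg adjustment over 12634 genes, and calls are those at or under 0.05.

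Lengths came from GENCODE M21 for 98.1% of tested genes. Length adjustment subtracted the running median over 50 length bins smoothed over 5, then recomputed p with the same SE. Its code was run on simulated folds with a trend straight in log length, and the outcome is not given here. Starts in the tables count from 0, and 99.5% of 20837 matched symbols lay on the same chromosome as in GENCODE. Promoter sequences are RefSeq's.

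The members, lists and comparisons were chosen with earlier results of these data known. Named genes were all members, Srf, the 2 highest and 2 lowest folds of each pathway list at 1 FPKM or more in a genotype, and the most abundant and most changed marker of each list. Csf3r, S100a8, S100a9 and Gp6, the Mcm7 microRNA genes and the genes overlapping members are named outside that rule, after their values were seen. So are the uncalled neutrophil precursor markers Elane, Prtn3, Cebpe and Cebpa, and the condensin and cohesin genes beyond the highest and lowest folds of their list. An item that the rule names is not reported here. Scripts ran in Python 3.11.15 with pandas 2.3.3, numpy 2.4.6, matplotlib 3.10.9 and scipy 1.17.1.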

Additional observations from a re-analysis of the deposited data

How the results depend on the processing

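Thresholds and filters leave a fold as it is, so of these settings only length adjustment and centring could change the direction of a member. The direction held under both, except that Bub1b was at -0.046 when folds were centred on the median of all tested genes. Of the 46 members, 31 were called higher as deposited, 20 at a q-value of at most 0.01 and 4 when a 2-fold difference was required as well. The share of all tested genes called higher was 17.7% as deposited and is not given here for the stricter settings. For mitosis genes the 2-fold requirement left 3 of 18. For replication genes it left 0 of 8, and a q-value of at most 0.01 left 4. The further cell cycle genes went from 68 called higher to 39 at 0.01 and 13 with the 2-fold requirement, settings chosen for that list after seeing the data, as was the removal of members with overlapping or copied genes. Centring left 24 members called, beside 1815 of all 12634 tested genes called higher. Length adjustment left 31, beside 14.5% of all tested genes. Among the pathway lists, centring took spindle genes called higher from 12 to 7 and RB, E2F and DREAM genes from 5 to 2, whereas length adjustment took the latter to 8. Condensin and cohesin genes called higher went from 1 to 0 when centred, 3 after length adjustment and 4 at a q-value of at most 0.10, and anaphase-promoting complex genes from 2 to 1, 1 and 5. Among the genes that the naming rule took from those lists, Ccnd3 was at -0.029 when centred and -0.10 after length adjustment, and Rfc1 at 0.068 after length adjustment. The medians of the replication and mitosis genes ranged from 0.51 to 0.70 and from 0.49 to 0.57, and their difference from -0.01 on the log2(FPKM + 1) scale to 0.13 with replication widened to all 17 genes of G1 and S phase. Leaving out each replicate was not run because the tables pool the samples. No paired analysis was possible because the values are pooled by genotype and the labels give no shared replicate numbers. The unknown depth limits the precision that can be stated for each level.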
